A study of Mus musculus with 10 samples.

Results

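The data described here are the transcripts of 7 CXC chemokines grouped as ligands of CXCR2, and of the receptors CXCR2 and CXCR1. They were measured in mouse prostate epithelium and in Myc-CaP prostate cancer cells, with and without deletion of Arid1a. Arid1a encodes a DNA-binding subunit of a chromatin remodelling complex of the SWI/SNF family. Members were chosen by symbol: 7 ligand genes (Cxcl1, Cxcl2, Cxcl3, Cxcl5, Ppbp, Pf4 and Cxcl15) and 2 receptor genes (Cxcr1 and Cxcr2), 9 of the 48897 rows of each expression table. The study asked how loss of Arid1a expands a population of myeloid cells in the tumour, and named Cxcl2 and Cxcl3 among the ligands of CXCR2.

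Prostate cells with EpCAM and without CD45 on their surface were collected by sorting from C57BL/6 mice at an age of 3 months. There were 3 control libraries (A, B and C) and 3 libraries labelled Arid1a KO (A, B and C), from Arid1aPC-/- mice. PC denotes deletion by a Cre driven by the Probasin promoter, which acts in prostate epithelium. Mice of both groups carried a further deletion made by this Cre, so the controls were not wild type. The cell line Myc-CaP, derived from a prostate cancer of a c-Myc transgenic mouse, gave 2 libraries with an empty vector (EV) and 2 with CRISPR-mediated Arid1a KO. Whether the knockout line was a clone or a pool was not given, and no label ties a library number to a culture. The methods give n = 3 for the mice, as many as the epithelium libraries of a group, but no label ties a letter to a mouse, so the p-values measure only the spread between these libraries. Epithelium values are RPKM (reads per kilobase of transcript and per 1e+06 mapped reads) and Myc-CaP values are TPM (the same per-length scale, set to a fixed sum per library).

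CXC chemokines with the ELR motif, among them Cxcl1, Cxcl2, Cxcl3, Cxcl5 and the processed forms of Ppbp, bind the G-protein-coupled receptor CXCR2 on neutrophils and related myeloid cells and draw these cells along a gradient. Their genes lie side by side in 1 cluster, and several are induced by interleukin-1, TNF and NF-kB and carry short-lived transcripts. Pf4, a product of platelets, lies in the cluster but lacks the ELR motif and is not a classical CXCR2 ligand. Cxcl15, first described in mouse lung epithelium, is found in rodents.

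In GENCODE M21 (GRCm38) the 7 ligand genes spanned chr5:90759360-90905938, 147 kb, in the order Cxcl5, Ppbp, Pf4, Cxcl3, Cxcl15, Cxcl1 and Cxcl2, all on the plus strand. Cxcr2 lay at chr1:74153989-74161246 on the plus strand and Cxcr1 beside it at chr1:74191785-74194631 on the minus strand. RefSeq promoters (GRCm38.p6, 250 bases before to 50 bases after the start) were matched for 8 of the 9 members. The exception was Cxcl5, whose promoter was not searched. The promoters of the ligands with the largest rises in either system and of Cxcl1 are shown, since these neighbours moved by very different amounts. They lie at chr5:90768268-90768567 (Ppbp), chr5:90785851-90786150 (Cxcl3), chr5:90794284-90794583 (Cxcl15), chr5:90890995-90891294 (Cxcl1) and chr5:90903649-90903948 (Cxcl2), all on the plus strand, and are written 5′ to 3′. Capitals mark TATAAA or 1 of 2 patterns of the kind NF-kB binds, on either strand. The looser of these is GGG, any 3 bases and TTCC, and the tighter is GGG, any 2 bases and TTTCC, so that every match of the tighter is also one of the looser.
Ppbp: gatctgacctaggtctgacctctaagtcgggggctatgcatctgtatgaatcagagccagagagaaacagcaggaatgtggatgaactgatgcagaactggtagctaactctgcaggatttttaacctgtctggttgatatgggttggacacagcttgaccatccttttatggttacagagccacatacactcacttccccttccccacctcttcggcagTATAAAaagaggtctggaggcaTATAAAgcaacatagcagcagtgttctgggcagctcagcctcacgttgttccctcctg
Cxcl3: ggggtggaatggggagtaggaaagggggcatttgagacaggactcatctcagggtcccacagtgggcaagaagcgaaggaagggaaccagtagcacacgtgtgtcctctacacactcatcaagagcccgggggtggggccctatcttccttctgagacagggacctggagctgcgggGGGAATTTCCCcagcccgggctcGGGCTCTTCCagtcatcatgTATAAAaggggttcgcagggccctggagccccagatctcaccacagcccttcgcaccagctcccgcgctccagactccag
Cxcl15: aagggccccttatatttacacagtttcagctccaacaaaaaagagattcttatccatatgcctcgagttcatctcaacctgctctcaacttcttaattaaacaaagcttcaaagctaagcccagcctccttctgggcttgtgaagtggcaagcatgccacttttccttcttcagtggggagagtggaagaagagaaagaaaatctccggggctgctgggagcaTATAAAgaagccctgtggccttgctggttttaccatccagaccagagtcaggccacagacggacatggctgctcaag
Cxcl1: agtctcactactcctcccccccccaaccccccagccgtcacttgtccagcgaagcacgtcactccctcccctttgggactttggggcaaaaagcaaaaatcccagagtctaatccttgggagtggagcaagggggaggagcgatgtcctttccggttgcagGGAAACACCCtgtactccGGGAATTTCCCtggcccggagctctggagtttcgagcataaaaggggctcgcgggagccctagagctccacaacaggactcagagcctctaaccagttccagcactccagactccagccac
Cxcl2: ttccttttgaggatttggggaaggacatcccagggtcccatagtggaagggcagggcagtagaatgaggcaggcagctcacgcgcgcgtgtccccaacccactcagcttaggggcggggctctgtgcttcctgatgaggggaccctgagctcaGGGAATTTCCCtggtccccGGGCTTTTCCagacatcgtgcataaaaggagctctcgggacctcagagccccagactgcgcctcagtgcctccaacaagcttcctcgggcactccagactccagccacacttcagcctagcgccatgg

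The letters GGGAATTTCC stood in the promoters of Cxcl1, Cxcl2 and Cxcl3, 71, 97 and 73 bases before the start. The tighter pattern was found in these 3 of the 8 member promoters and in 1.63% of all 32851 promoters, and the looser in the same 3 and in 5.56%. TATAAA stood in the promoters of Ppbp (at 2 places), Cxcl3 and Cxcl15, and in 13.6% of all promoters. The 3 promoters with GGGAATTTCC therefore belonged to a gene that rose 6.74-fold, one that rose 2.17-fold and one, Cxcl1, that did not pass the test in the epithelium. Ppbp, the gene with the largest rise, held neither NF-kB pattern in this window. A match of letters is a description and not a bound site. The AU-rich letters ATTTA were counted in the transcript of each member with the length nearest to that used in the tables. They occurred 11 times in Cxcl2, 7 in Cxcl1, 5 in Cxcl3, 5 in Cxcl5, 4 in Cxcl15 and once each in Ppbp and Pf4. The median over 21877 coding genes was 2, by another rule, from the longest coding transcript of each gene. No count was adjusted for length. The transcripts of Cxcl2 and Cxcl3 shared an identical run of 110 bases, while no other pair of members shared more than 23. How reads from the shared run were assigned is not given beyond the use of best matches, so the levels of Cxcl2 and Cxcl3 are uncertain to that extent.

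Both tables hold whole reads behind their values. RPKM and TPM values of a gene fell on multiples of the value of 1 read, and the smallest whole reads that give them were recovered for 99.6% of the genes tested in the epithelium and 99.4% in Myc-CaP. In units of 1e+06 reads, depth was 28.8 to 36.3 mapped reads per epithelium library and 18.4 to 20.7 reads in recovered genes per Myc-CaP library. In the epithelium the Arid1a transcript stood at 30.2 ± 1.23 RPKM in the libraries labelled Arid1a KO and so was not reduced against control, at 25.4 ± 3.13 RPKM (SD, n = 3; limma adjusted p = 0.0540), although exons outside a deleted part would still be counted. In Myc-CaP it fell from 60.7 ± 0.355 to 39.9 ± 0.581 TPM (SD, n = 2; limma adjusted p = 0.0102). Epithelial markers were abundant in the sorted cells, with Krt8 at 859 RPKM and Epcam at 304 RPKM in control. In Myc-CaP, Epcam was at 0 in 3 of 4 libraries, and Epcam, Cdh1 and Krt18 were below the level for testing. Krt8 was at 0.932 TPM in EV and 39.6 TPM in KO (log2 difference 4.40, limma adjusted p = 0.00135), and Cldn3 was abundant, at 711 and 838 TPM. The markers of epithelium were thus uneven in the line, and Krt8 moved with the KO.

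In the sorted epithelium, most of the 7 genes grouped as ligands, Pf4 included, and Cxcr2 itself rose with the Arid1a KO label. Of the 9 members, 8 reached the mean of 0.5 RPKM needed for testing (all but Cxcr1) and 7 passed, 6 higher (Ppbp, Cxcl3, Cxcr2, Cxcl2, Cxcl15 and Pf4) and 1 lower (Cxcl5). Over all 16275 genes tested, 57.1% passed, 27.5% higher and 29.6% lower. The counts of the members and of every gene list in the epithelium are read against these shares. Every labelled KO library lay above every control library for 6 tested members and below for 1, against 32.4% and 34.4% of all genes tested. The median difference over the 8 tested members was 1.06 on the log2(RPKM + 1) scale, against -0.03 over all genes. In these bulk samples, fewer cells of a type and less RNA per cell cannot be told apart.

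**Figure D1:**
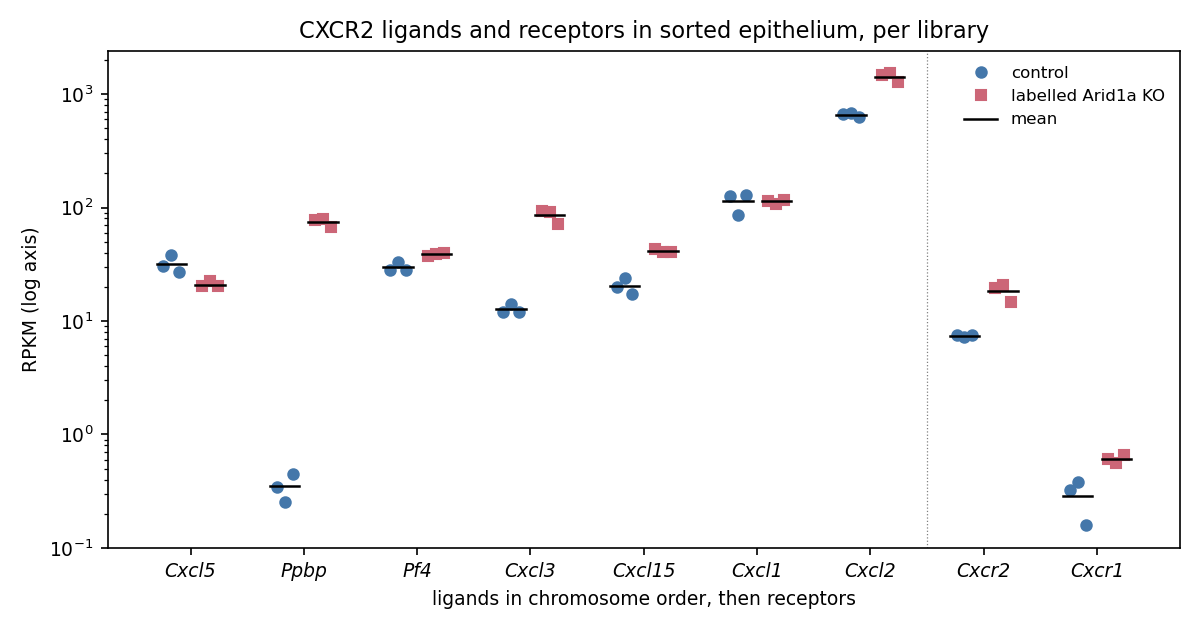
RPKM (log axis) of each ligand and receptor gene in the 3 control libraries (circles) and the 3 libraries labelled Arid1a KO (squares) of sorted epithelium, with black bars at the means. Ppbp went from below 0.5 to above 67 RPKM, Cxcl2 was the most abundant member in every library, Cxcl1 overlapped between groups and Cxcl5 was the only ligand with every labelled KO library below every control library.

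Ppbp, the precursor of the platelet chemokine NAP-2 (CXCL7), showed the largest change. In control it stood at 0.343 RPKM (A), 0.254 RPKM (B) and 0.444 RPKM (C), and in the libraries labelled Arid1a KO at 78.2, 79.7 and 67.2 RPKM. The groups were far apart, and the ratio of means was 216. Behind the control values were 11, 10 and 15 reads, whose exact 95% Poisson intervals (counting error only) ran from 0.122 to 0.733 RPKM over the 3 libraries, against 2579, 2572 and 2096 reads in the labelled KO libraries. The log2 difference was 5.82 ± 0.09 (SE; limma adjusted p = 1.33e-07), the highest of all 16275 genes tested, and because of the added 1 it understates the change of a gene this low in control. Among all 48897 rows Ppbp moved from rank 16625 to 18257 in control to rank 788 to 947.

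Pf4, the neighbour of Ppbp and like it a product of platelet granules, moved far less. Its levels were 28.0, 32.8 and 28.0 RPKM in control and 37.3, 39.2 and 39.8 RPKM in the labelled KO libraries. The groups did not overlap, with a ratio of 1.31 and a log2 difference of 0.38 ± 0.08 (limma adjusted p = 0.00447). The ratio of Ppbp to Pf4 within a library was 0.00775 to 0.0159 in control and 1.69 to 2.10 in the labelled KO libraries.

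Cxcl3, a close relative of Cxcl2, had the second largest rise among the members. It was at 11.9, 14.1 and 12.04 RPKM in control and at 93.1, 91.5 and 71.6 RPKM in the labelled KO libraries. The ratio was 6.74 and the log2 difference 2.65 ± 0.11 (limma adjusted p = 7.83e-06). Cxcl2 (MIP-2), a main neutrophil attractant in mice, was the most abundant member per length, at 669, 679 and 622 RPKM in control and 1485, 1523 and 1268 RPKM in the labelled KO libraries. Every labelled KO library was thus above every control library, by a ratio of 2.17 and a log2 difference of 1.11 ± 0.11 (limma adjusted p = 1.48e-04). Cxcl15 was at 20.05, 23.7 and 17.3 RPKM in control and 43.5, 40.5 and 40.5 RPKM in the labelled KO libraries. It rose 2.04-fold (log2 difference 1.003 ± 0.11, limma adjusted p = 2.54e-04), with no overlap between the groups.

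Cxcl1 (KC), the ligand most often measured together with Cxcl2, did not follow it. Its levels were 125, 86.4 and 128 RPKM in control and 115, 108 and 117 RPKM in the labelled KO libraries. Both groups had a mean of 113 RPKM and overlapped, with control B the lowest of the 6. The log2 difference was 0.02 ± 0.15 (95% interval -0.32 to 0.36; limma adjusted p = 0.909), and without control B it was -0.16 (limma adjusted p = 0.0510). The interval lay below that of Cxcl2 (0.865 to 1.36) and overlapped that of Cxcl5 (-0.848 to -0.295). Differences between these genes were not tested. Cxcl5 (LIX), which many epithelia produce, fell. It was at 30.3, 38.0 and 27.2 RPKM in control and 20.2, 22.3 and 20.2 RPKM in the labelled KO libraries, a ratio of 0.657 without overlap (log2 difference -0.57 ± 0.12, limma adjusted p = 0.00479).

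The make-up of the ligand transcripts changed with these differences. The 7 ligands summed to 865 ± 26.2 RPKM in control and 1800 ± 153 RPKM in the labelled KO libraries (SD, n = 3 each), 2.08 times as much. Cxcl2 supplied 74.5% to 77.7% of the sum in control and 78.1% to 80.0% in the labelled KO libraries. The share of Cxcl1 went from 9.89% to 15.4% down to 5.69% to 7.19%, and that of Cxcl5 from 3.25% to 4.35% down to 1.08% to 1.24%. Ppbp and Cxcl3 went from 0.0291% to 0.0532% and 1.35% to 1.61% up to 4.14% to 4.19% and 4.41% to 4.97%. The order by level changed too. In control, Cxcl1 followed Cxcl2, then Cxcl5 and Pf4 with overlapping ranges, Cxcl15, Cxcl3 and Cxcr2, and last Ppbp and Cxcr1 with overlapping ranges. In the labelled KO libraries, Cxcl3 and Ppbp, whose ranges overlapped, came next after Cxcl2 and Cxcl1, above Cxcl15 and Pf4, while Cxcl5 and Cxcr2 overlapped below them.

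**Figure D2:**
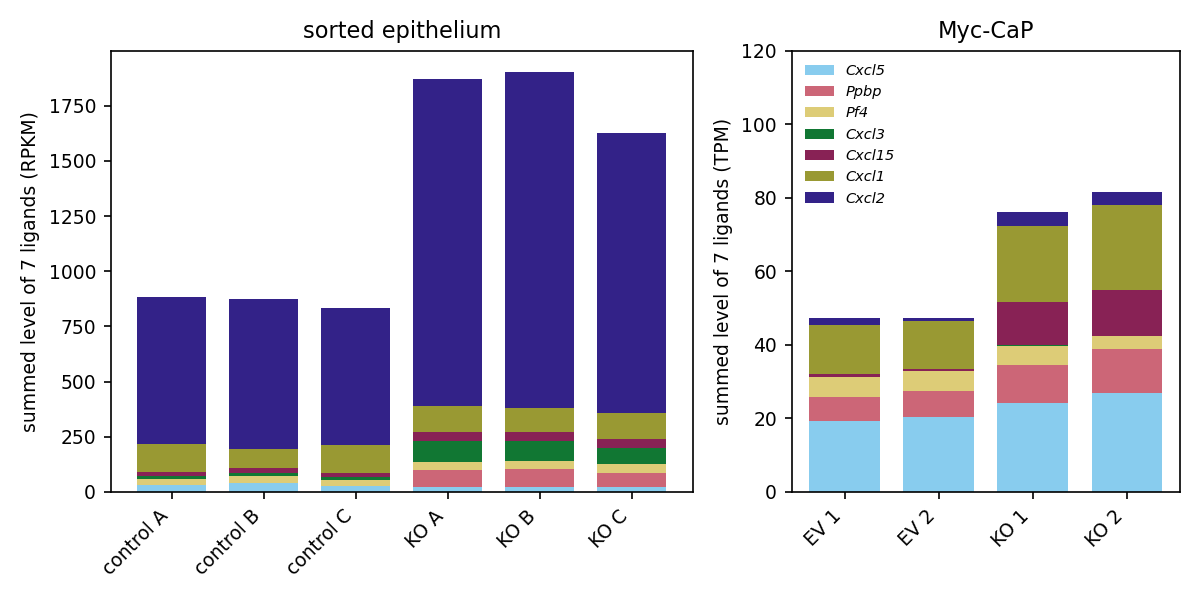
Summed level of the 7 ligand genes per library, as stacked bars in RPKM (sorted epithelium, left) and TPM (Myc-CaP, right), on axes that start at 0. In the epithelium Cxcl2 fills 74.5% to 80.0% of every bar, whereas in Myc-CaP Cxcl5 and Cxcl1 fill most of each bar and Cxcl15 is visible mainly in the KO libraries.

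The receptor Cxcr2 was higher as well. Its levels were 7.46, 7.15 and 7.50 RPKM in control and 19.7, 20.6 and 14.7 RPKM in the labelled KO libraries. KO library C was the lowest of its group, and the groups did not overlap, with a ratio of 2.49 and a log2 difference of 1.19 ± 0.12 (limma adjusted p = 1.81e-04). Cxcr1, the related receptor, was at 0.324, 0.377 and 0.158 RPKM in control and 0.603, 0.561 and 0.656 RPKM in the labelled KO libraries, from 18 to 69 reads. It was below the level set for testing. With no filter on low values its log2 difference was 0.32 (limma adjusted p = 0.0300). CXCR2 is a receptor of neutrophils, and the sort was meant to remove CD45-positive cells. Ptprc, which encodes CD45, was nevertheless at 28.6 ± 2.30 RPKM in control and 57.3 ± 0.983 RPKM in the labelled KO libraries (log2 difference 0.98, limma adjusted p = 5.36e-05).

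The markers of blood cells that carry these genes were therefore read beside them. Of 18 neutrophil markers, 16 were tested (median 0.47), and 8 rose and 3 fell, against 27.5% and 29.6% of all genes tested. Their summed level was 727 to 938 RPKM in control and 1053 to 1308 RPKM in the labelled KO libraries. Ltf, a granule protein, rose from 89.8 to 401 RPKM and made up much of that, since without it the sums were 644 to 834 and 671 to 927 RPKM. Csf3r, the G-CSF receptor, rose by 1.06, close to Cxcr2. S100a8, at 144 and 177 RPKM, and S100a9, at 189 and 251 RPKM in control and labelled KO, did not pass. Ly6g, at 0.409 and 1.13 RPKM, passed and was higher, and none of the 18 was at 0 in all libraries. Ltf, Csf3r and Ly6g were thus among the 8 that rose, and the 3 that fell are not named here. All 13 macrophage and monocyte markers rose (median 0.84), from a sum of 2813 to 3229 RPKM to one of 5122 to 5860 RPKM, with Lyz2 the most abundant. The part of these cells in the rise of Cxcr2, Cxcl2 and the other ligands was not tested.

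For Ppbp and Pf4 the platelet and megakaryocyte list was read in the same way, against 27.5% higher and 29.6% lower over all genes tested. Of 16 markers 9 were tested, of which Thbs1 (1.53), Itgb3 (1.498) and F13a1 (0.73) rose and Gp1bb (-0.41) and Itga2b (-0.33) fell. The call of Gp1bb held in 8 of 14 alternatives and that of Itga2b in 9 of 14. Both were lost with no filter on low values and when each library was rescaled to the same sum. Leaving out certain single libraries also removed both calls, and a replicate block removed that of Gp1bb. The sum was 212 to 270 RPKM in control and 575 to 735 RPKM in the labelled KO libraries, most of it Thbs1, which many other cells make. Without Thbs1 it was 36.0 to 47.0 and 57.1 to 72.4 RPKM. The defining platelet genes were low in both groups, with Itga2b at 2.45 and 1.73 RPKM in control and labelled KO, Gp1bb at 3.51 and 2.40 RPKM, and Gp9, Gp5, Gp6, Treml1, Clec1b and Tubb1 below the level for testing, with group means of 0 to 0.551 RPKM. Treml1, with the widest ratio of means among those with reads in both groups, was at 0.154 and 0.375 RPKM. In Myc-CaP the same list summed to 15.8 to 24.5 TPM in EV and 53.3 to 58.0 TPM in KO. Itgb3 was its most abundant gene there and the only one that passed, higher in KO. The part of platelets in the levels of Ppbp and Pf4 was not tested.

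**Figure D3:**
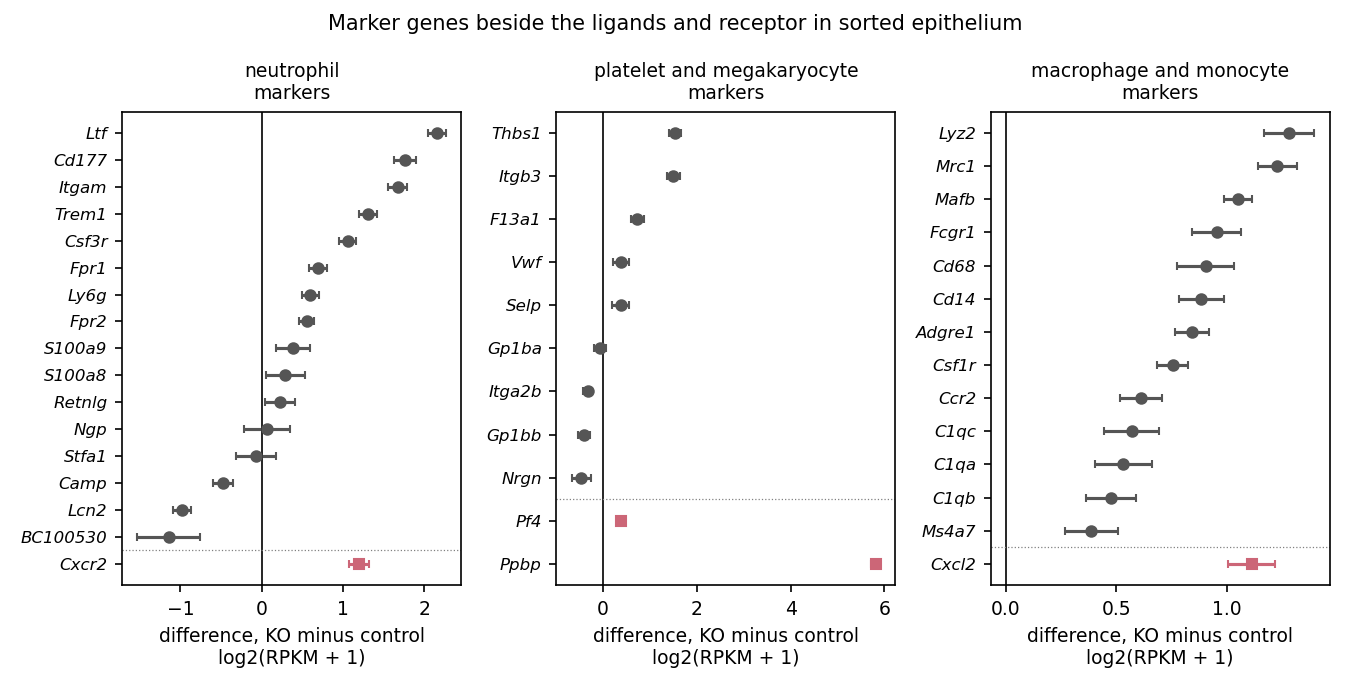
Difference between labelled KO and control on the log2(RPKM + 1) scale with standard errors, for the tested neutrophil, platelet and macrophage markers (grey circles) and, below the dotted line, for Cxcr2, Pf4 and Ppbp, and Cxcl2 (squares). Cxcr2 lies at 1.19 among the higher neutrophil markers, and Ppbp, at 5.82, lies far to the right of every platelet marker.

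Other cell types in the sort differed too and are given as measured. Over all genes tested, 27.5% rose and 29.6% fell. Of the tested markers, 6 of 7 for B cells and 5 of 8 for T cells rose, as did 2 of 5 for basal epithelium. All 5 for mast cells, all 7 for seminal vesicle and 4 of 6 for luminal prostate fell. All 5 erythroid markers fell (median -2.27), from a sum of 472 to 604 RPKM to one of 82.5 to 136 RPKM. Of 7 leukocyte markers 5 rose and Cd52 fell, and 3 of 6 fibroblast markers fell. The seminal vesicle genes summed to 18358 to 20775 RPKM in control and 623 to 1574 RPKM in the labelled KO libraries. The mast cell genes went from 271 to 312 RPKM to 43.5 to 81.8 RPKM, and Pbsn, whose promoter drives the Cre, from 187 to 5.34 RPKM. Of the tested epithelial markers, 4 of 8 fell, with Epcam at 304 ± 40.9 and 201 ± 21.5 RPKM (SD, n = 3 each). The part of these differences in the results for the ligands was not tested.

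Most genes tested for signals that induce these ligands rose with them. Of 25 tested genes for inducers and their receptors, 15 rose and 5 fell (median 0.71), against 27.5% and 29.6% of all genes tested. The 5 with the largest differences were Il1a (2.12), Il1rn, which encodes the natural antagonist of the interleukin-1 receptor (1.77), Osm (1.61), Il1b (1.13) and Tlr2 (1.05). Traf3ip2, the adaptor of the IL-17 receptor, fell most (-0.73). Of 20 genes of the NF-kB pathway 13 rose and 2 fell (median 0.30), led by Rel (1.81), Tnfaip3, an inhibitor of the pathway (0.93), and Nfkbie, Nfkbiz and Nfkbid (0.92, 0.85 and 0.75). Several of the risers are inhibitors of NF-kB and targets of it. Rela, at 63.0 and 67.8 RPKM, did not pass. Of 16 genes of mRNA decay 11 rose (median 0.30). Among them were Zc3h12a, an endonuclease that degrades inflammatory transcripts (1.10), Zc3h12c (0.72) and Zfp36l2 (0.58), while Zfp36 was at 973 and 966 RPKM. The macrophage markers moved with all 3 lists, and their part in them was not tested.

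Downstream of the receptor, 20 of 27 tested signalling genes rose and 2 fell (median 0.42), against 27.5% and 29.6% of all genes tested. Pik3r5, the regulatory subunit of PI3-kinase gamma, had the largest difference (1.32), followed by the Src-family kinase Fgr (1.07), the Rac activator Prex1 (1.02), the kinase Lyn (0.96) and the phospholipase Plcb2 (0.93). Myeloid cells express all 5 of these, and the part of the neutrophil and macrophage markers that rose beside them was not tested. Of the 6 other tested chemokine receptors and binding partners, Cxcr4 rose (0.70), and Ackr1 (-1.03), a decoy that binds CXC ligands without G-protein signalling, and Cxcr3 (-0.56), a receptor for Pf4 among others, fell. Of 20 genes that cut or hold chemokines, 8 rose and 6 fell, against the same 27.5% and 29.6%. Mmp12, a macrophage elastase that can cleave ELR ligands, rose most (3.35), with Mmp8 (1.38) and Mmp9 (0.98), and Mmp7 fell (-1.88).

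In Myc-CaP cells, which held few leukocyte transcripts, 2 ligands rose with Arid1a KO. Of the 9 members 6 were tested and 2 passed, Cxcl15 and Cxcl1, both higher. Over all 13974 genes tested 6.43% passed, 4.54% higher and 1.89% lower. Both KO libraries lay above both EV libraries for 5 tested members and below for 1, against 24.9% and 26.6% of all genes tested. At an unadjusted p under 0.05, 5 of the 6 tested members passed, against 22.1% of all genes tested. The median difference was 0.65 on the log2(TPM + 1) scale, against -0.01 over all genes. Ptprc was at 0 to 0.0441 TPM, 12 of the 18 neutrophil markers, Csf3r, S100a8 and Ly6g among them, were at 0 in all 4 libraries, and the macrophage list summed to 8.33 to 13.4 TPM, most of it Cd14. Of the neutrophil list only Lcn2, which epithelia also make, was tested, and it fell from 100 to 32.9 TPM.

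**Figure D4:**
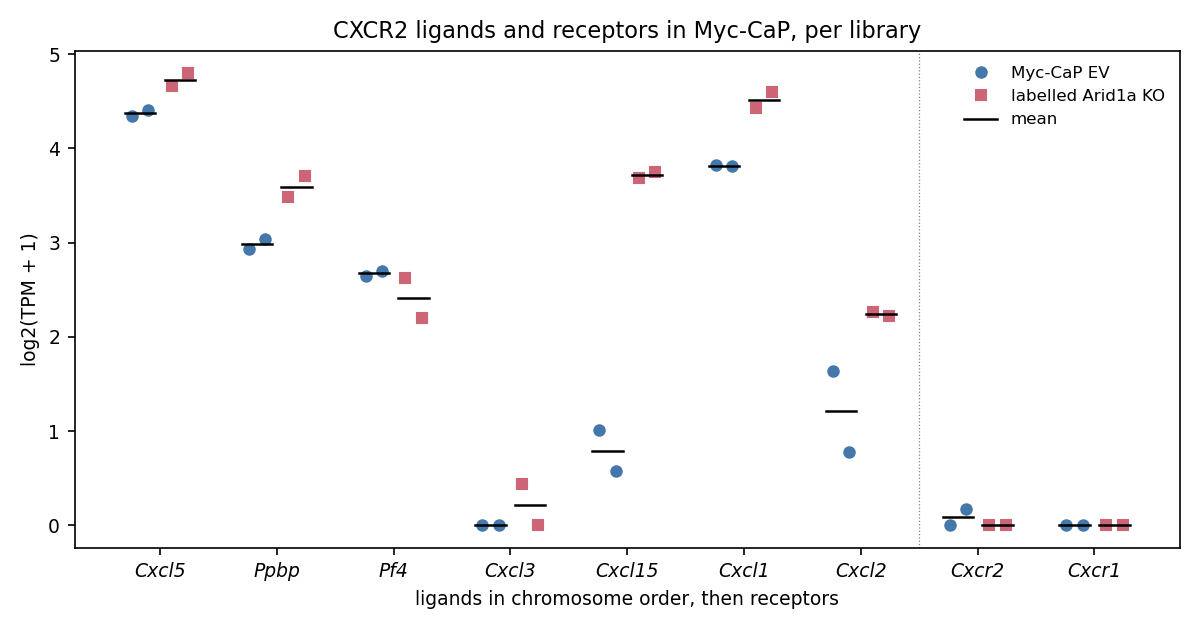
Levels of each ligand and receptor gene as log2(TPM + 1) in the 2 EV libraries (circles) and the 2 Arid1a KO libraries (squares) of Myc-CaP, with black bars at the means. Cxcl15 shows the widest gap between groups, Pf4 is the only ligand with both KO libraries below both EV libraries, and Cxcl3, Cxcr1 and Cxcr2 are at or near 0.

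Cxcl15 had the largest change. It was at 1.02 and 0.488 TPM in EV libraries 1 and 2 and at 11.8 and 12.4 TPM in KO libraries 1 and 2, from 19, 8, 208 and 201 reads. The groups were far apart, with a ratio of 16.1 and a log2 difference of 2.92 ± 0.19 (limma adjusted p = 0.00419), the fifth highest of all genes tested in Myc-CaP. Without KO library 1 the adjusted p of the same limma test was 0.0724 and without KO library 2 it was 0.0676, with the other KO library alone in its group. Cxcl1 was at 13.1 and 13.03 TPM in EV and 20.5 and 23.1 TPM in KO, a ratio of 1.67 (log2 difference 0.69 ± 0.09, limma adjusted p = 0.0212). The groups did not overlap, but the call was lost when any 1 of the 4 libraries was left out (limma adjusted p 0.111 to 0.150, log2 difference 0.61 to 0.78).

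Of the remaining ligands, 3 were higher in both KO libraries without passing. Ppbp was at 6.63 and 7.18 TPM in EV and 10.2 and 12.02 TPM in KO (log2 difference 0.61 ± 0.12, limma adjusted p = 0.0560), and it passed under 4 of 13 alternatives. Cxcl5, the most abundant member in this line, was at 19.3 and 20.3 TPM in EV and 24.3 and 26.8 TPM in KO (0.35 ± 0.08, limma adjusted p = 0.0867). Cxcl2, the leading ligand of the epithelium, was at 2.11 and 0.718 TPM in EV and 3.80 and 3.64 TPM in KO (1.03 ± 0.31, limma adjusted p = 0.140), from 6 to 34 reads. The EV libraries of Cxcl2 thus lay further apart than its KO libraries, and without EV library 2 its difference was 0.60 (limma adjusted p = 0.281). Pf4 was at 5.23 and 5.51 TPM in EV and 5.14 and 3.58 TPM in KO (-0.26 ± 0.18, limma adjusted p = 0.463).

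Cxcl3 and both receptors were at the limit of detection in Myc-CaP. Cxcl3 had 0 reads in 3 libraries and 3 reads (0.357 TPM) in KO library 1, and a count of 0 allows up to 0.336 to 0.388 TPM (3 reads). Cxcr2 had 3 reads in EV library 2 (0.124 TPM) and 0 in the others, which allows up to 0.109 to 0.126 TPM. Cxcr1 had 0 reads in all 4, which allows up to 0.0936 to 0.108 TPM. No difference was detectable for these 3 genes at this depth.

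The ligand sum in Myc-CaP was 47.3 ± 0.133 TPM in EV and 78.8 ± 3.89 TPM in KO (SD, n = 2 each), 1.67 times as much. Cxcl5 supplied 40.7% to 43.0% of the sum in EV and 31.9% to 32.8% in KO, and Cxcl1 27.6% to 27.7% and 27.0% to 28.4%. Cxcl15 went from 1.03% to 2.15% up to 15.2% to 15.6%, so that it overtook Ppbp and Pf4. Cxcl2, with 1.52% to 4.99%, had a small share in all 4 libraries, unlike in the epithelium.

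In Myc-CaP, 6.43% of all genes tested passed, 4.54% higher and 1.89% lower. Among pathway genes the share was 33.3% in the processing and glycosaminoglycan list and 16.7% in receptor signalling. It was 12.5% in mRNA decay, 10.5% in the NF-kB pathway and 6.25% in inducers and their receptors. Of 19 tested genes of the NF-kB pathway Tnfaip3 (-0.63) and Nfkb2 (-0.43) fell, of 16 inducers and their receptors Tnfrsf1a rose (0.44), and Il1a, Il1b and Tnf were below the level for testing. Tnfaip3 thus differed in opposite directions in the 2 systems (0.93 in the epithelium), and that contrast was not tested. Of 16 mRNA decay genes Zfp36l2 (0.54) and Zfp36 (0.36) rose, of 18 receptor signalling genes Pik3r6 (1.19) and Rgs2 (0.68) rose and Plcb3 (-0.31) fell, and of 9 processing and glycosaminoglycan genes Sdc4 (0.61), Ndst1 (0.42) and Sdc1 (0.34) rose. Each of these calls was lost when any 1 of the 4 libraries was left out. The medians of the decay and signalling lists, -0.04 and -0.05, were opposite in sign to most of their calls. Ackr3, at 17.4 and 22.2 TPM, and Mif, at 1902 and 1804 TPM, were the other genes tested among the receptors and binding partners and did not pass.

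**Figure D5:**
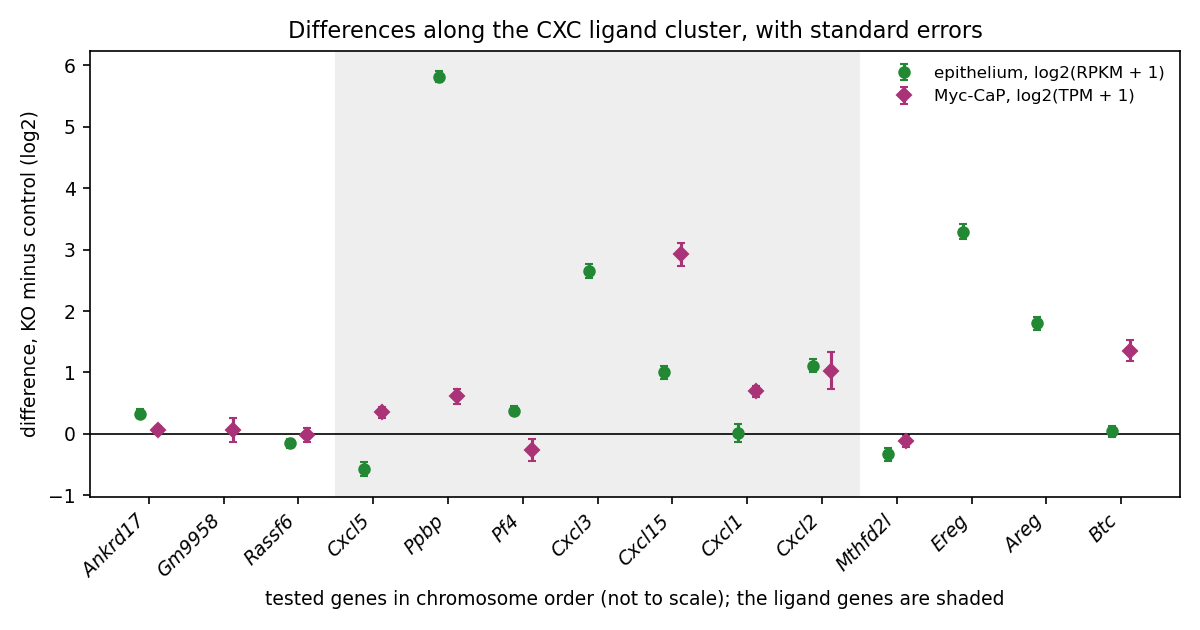
Difference between KO and control with standard errors for the tested genes of the ligand cluster (shaded) and 500 kb on either side, in chromosome order, in the epithelium (circles, log2(RPKM + 1)) and Myc-CaP (diamonds, log2(TPM + 1)). Of the genes plotted, Ppbp (5.82), Ereg (3.30) and Cxcl3 (2.65) have the largest differences in the epithelium, and Cxcl15 (2.92) and Btc (1.36) in Myc-CaP.

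Along the chromosome, adjacent ligand genes differed in their changes. In the epithelium Ppbp (5.82) lay between Cxcl5 (-0.57) and Pf4 (0.38), and Cxcl1 (0.02) between Cxcl15 (1.003) and Cxcl2 (1.11). Within 500 kb of the cluster 12 other protein-coding genes are annotated. Of the 6 tested in the epithelium, 3 rose and 1 fell, against 27.5% and 29.6% of all genes tested. Ereg, which encodes the EGF-receptor ligand epiregulin, rose from 0.195 ± 0.107 to 10.8 ± 1.53 RPKM (log2 difference 3.30), Areg, for amphiregulin, from 19.5 ± 1.85 to 70.7 ± 7.63 RPKM (1.80) and Ankrd17 from 9.75 to 12.5 RPKM (0.33). Mthfd2l, next to Cxcl2, fell from 2.71 to 1.97 RPKM (-0.33), with limma adjusted p from 3.67e-06 to 0.0326 over these 4. The call of Mthfd2l held in 8 of 14 alternatives. It was lost with no filter on low values and on rescaling each library to the same sum. Leaving out any 1 control library or labelled KO library A removed it too. Rassf6 and Btc did not pass. In Myc-CaP 5 neighbours were tested and Btc, for betacellulin, rose (1.36), against 4.54% higher over all genes tested. That call was lost with no filter on low values and when any 1 library was left out.

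Over the 6 epithelium libraries, Cxcl2, Cxcl3, Ppbp and Cxcr2 followed each other closely (Pearson r 0.978 to 0.997 between pairs, a description over 6 libraries that fall into 2 groups), while Cxcl1 had r of -0.48 to 0.07 with the other members. Among 9026 genes with a mean of at least 5 RPKM, Cxcr2 was most like Csf3r, Ecm1 and Amz1, with Csf3r (r 0.999) also the G-CSF receptor of neutrophils. Ppbp was most like Mlkl, Clec7a and Cep164, Cxcl3 like F7, Tmbim1 and Soat1, Cxcl2 like LOC100038947, Sbf1 and Pnpla7, and Cxcl15 like Oas1a, Dhx58 and Pald1. Pf4 was most like Smim15, Ifit1bl1 and Wdr1, and Cxcl5 like Gm13436 and a gene listed only by an Ensembl identifier. Genes that separate the groups in the same direction as a member tend to score high with it. From 11 (Pf4) to 380 (Ppbp) genes exceeded r of 0.99, with 144 for Cxcr2.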

How the data were processed

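All samples carry the same growth and treatment text, so which samples were Myc-CaP cells was read from the source names, and that the libraries came from cultured cells is not settled by the labels. RNA was extracted with Trizol and sequenced on the Illumina platform. Per the study's methods, the authors mapped strand-specific reads to GRCm38 with TopHat2, kept best matches and counted them per gene with HTSeq-count, whereas the submitters' processing notes name HISAT2 and HTSeq on mm10. Which aligner made the files is not settled by these sources, and the gene lengths and annotation used are not given in them. The authors deposited RPKM for the 6 epithelium libraries and TPM for the 4 Myc-CaP libraries. Values of the per-sample and series tables differed in 0 cases.

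The members and gene lists were chosen with earlier results of these data known. The tables were fitted separately with limma 3.58.1 (lmFit, eBayes with a trend) in R 4.3.3 on log2(value + 1), for genes with a mean of at least 0.5, with Benjamini-Hochberg adjustment over all genes of the table and a threshold of 0.05. P-values are two-sided. Fold changes on this scale understate low genes. Differences between the tables were not tested, since the tables were normalized separately. Whole reads were taken from the steps between values (tolerance 0.01 reads), with 99.1% of implied gene lengths whole within 0.02 bases, and intervals and limits from them cover counting error only. A factor common to all reads of a gene could not be detected this way. The named genes were the members, Arid1a, up to 5 called genes with the largest change per pathway list, the most abundant marker genes, tested genes within 500 kb of the cluster and the 3 genes most like each called member. Other genes, such as Traf3ip2, Rela, Zfp36, Csf3r, S100a8, S100a9, Ly6g, Treml1 and platelet glycoproteins, were chosen after their values were seen. Alternatives were the pseudocount, the filter, 3 scalings, no trend, a replicate block, leaving out each library and, chosen after seeing the data, voom weights on the recovered reads. The scripts recovered known changes in simulated data. Some items, among them the deletion shared by both groups of mice, are not reported here. Promoters are from RefSeq and transcripts from GENCODE M21, and alignments were made with Biopython 1.88.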

Additional observations from a re-analysis of the deposited data

Results flagged for a closer look

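Cxcl5 and Pf4 were flagged because all libraries moved in opposite directions in the 2 systems. The log2 difference of Cxcl5 was -0.57 in the epithelium, where every labelled KO library was below every control library, and 0.35 in Myc-CaP, where both KO libraries were above both EV libraries. That of Pf4 was 0.38 in the epithelium and -0.26 in Myc-CaP, again with no overlap between groups in either. The difference between the systems was not tested for either gene, and neither gene passed the threshold in Myc-CaP. Behind the Pf4 values in Myc-CaP were 16 to 27 reads per library, against 259 to 337 reads for Cxcl5.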

How the results depend on the processing

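All 7 member calls in the epithelium held under each of 15 alternatives, and 180 of 196 alternatives of single members kept their direction and side of the threshold. In Myc-CaP, rescaling to the same sum could change nothing, since TPM already have a fixed sum per library. It is nevertheless counted among these alternatives for every tested member. With no filter on low values Cxcr1 passed as well. The sign of Cxcl1 in the epithelium, which never passed, turned to -0.16 without control B and to -0.000196 without KO library C, in a range up to 0.12 when 1 library was left out. Rescaling each library to the same sum moved the median of all genes from -0.03 to 0.11 and the share of calls that were higher from 48.1% to 64.9%, and no member changed direction with any of the 3 scalings, nor did the median of any gene list, except that of the other receptors in the epithelium (-0.20 to 0.000118 with quantile normalization). With a minimum mean of 5 RPKM, 5872 genes passed in place of 9294, since fewer genes were tested.

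Myc-CaP calls were less stable. In place of 2 members and 899 genes, 1 member and 358 genes passed with no filter, 1 and 451 with no trend, 0 to 1 and 47 to 76 when 1 library was left out, and 2 members and 1570 genes with voom on recovered reads. The cause was not tested, except that leaving out a library leaves 1 in its group, assumed to vary like the other group. With a replicate block 5 members (Cxcl2, Cxcl5 and Ppbp also, with limma adjusted p of 0.0449, 0.0193 and 0.0142) and 2771 genes passed. The library numbers are not shown to pair the samples. Deviations of same-numbered libraries correlated at -0.057 to 0.041 in the epithelium, where the block changed no member call. In Myc-CaP those of the same number correlated at 0.19 and those of different numbers at -0.19. With 2 libraries in a group these are 1 value with both signs, which cannot decide on pairing. Ppbp in Myc-CaP also passed with a minimum mean of 5, quantile normalization or median-of-ratios scaling (limma adjusted p 0.0364 to 0.0423).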
